A study of Homo sapiens with 12 samples.

Results

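The question was which genes and functions responded to growth as a tumour differently in cells of spheroid and of parental origin. All 12 arrays of the series entered the comparison (12 of 12 samples), 3 in each of 4 groups, and 19775 genes were tested. The cells were NCI-H1299, a long-established line from a human lung carcinoma of the non-small cell type. Parental cells were cultured in medium with serum (parental culture). Spheroid cells came from the same line after 7 to 10 days in a stem cell medium, when floating cells were moved to flasks that hinder attachment (spheroid culture). Xenograft tumours were grown from parental cells (parental xenograft) and from spheroid cells (spheroid xenograft). No agent or engineered allele is named for any group. The groups share 1 cell line, so they model 1 tumour, and medium, attachment and cell origin cannot be told apart between the cultures. The host animal, the site and age of the tumours and any pooling of tumours are not stated in the labels. By their titles the samples within a group are biological replicates. No label ties a tumour to an animal, so p-values measure the spread between samples that may be partly technical.

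Cells in a dish and cells in a tumour differ in oxygen, nutrients, matrix and neighbouring cells. Hypoxia-inducible factors are stabilised when oxygen is low and switch on genes of glucose uptake, glycolysis and matrix modification. ATF4 is translated when amino acids are short or the endoplasmic reticulum is stressed, and drives genes of amino acid uptake and synthesis. Matricellular and mesenchymal genes are known in carcinoma cells for a motile, matrix-rich state.

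For each gene the growth response is the log2 level in xenografts minus that in culture, taken separately for each origin. The interaction is the spheroid growth response minus the parental growth response, so a negative value marks a gene with the lower response in spheroid-derived cells. Differences are on the log2 scale, each with its standard error (SE) from limma, and "called" means a p under 0.05 after Benjamini-Hochberg adjustment across the 19775 genes. The median SE was 0.28 for the interaction and 0.20 for a growth response. With 3 arrays a group, the smallest p of an exact permutation test between a pair of groups is 0.1, and tests of genes therefore come from limma. Because both growth responses enter the interaction, they are given side by side with it and are not independent of it.

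The arrays had medians of 5.85 to 6.03. Correlations between arrays of a group ran from 0.956 to 0.994, and the median SD of a gene was 0.316 in parental culture against 0.156 to 0.199 in the other groups. Parental culture arrays 1 and 2 stood apart: the 5′ probe set for 18S ribosomal RNA read 6.96 and 10.50 there, against 12.21 to 13.34 on the other 10 arrays. On parental culture array 1 the GAPDH control read 0.49 higher at its 3′ than at its 5′ probe set, against 0.02 to 0.13 on all other arrays. The mean over all genes was 7.10 on that array and 7.21 to 7.29 on the others. The part of these array differences in the results was not tested, and counts of called genes are given with and without each of parental culture arrays 1 and 2. As a check of the labelled cell type, keratin gene KRT18 read 10.28 to 13.01 and VIM, the mesenchymal filament vimentin, 13.55 to 14.70 on all arrays, whereas the epithelial adhesion gene EPCAM read 3.98 to 4.40, below the lower quartile of every array. In tumours, fewer cells of a type and less RNA per cell cannot be told apart, and the share of host RNA on these human arrays was not measured.

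The growth response differed by origin for 27 genes (0.137% of those tested), 14 of them lower (0.0708%) and 13 higher (0.0657%) in spheroid-derived cells. The genes called lower included SPARC, PRRX1, FAP and THBS3 of matrix and mesenchyme, and SLC2A3, HILPDA and STARD4 of glucose and lipid handling. Those called higher included the stress gene CHAC1, the neuronal gene NRN1 and 4 genes of chromosome 19. All 27 differed by at least 2-fold. At an unadjusted p under 0.05 there were 1465 genes. Parental cells themselves changed 687 genes on growth as tumours (3.47%), 395 higher (2.0%) and 292 lower (1.48%). Spheroid-derived cells changed 4 (0.0202%), all higher. Both counts rest on 1 spread per gene shared by all groups. The median SD was 0.316 in parental culture and 0.156 to 0.199 in the other groups, so the counts are not directly comparable. The part of this unequal spread in the gap between them was not tested. At an unadjusted p under 0.05 the parental response held 2823 genes and the spheroid response 1461. The number called in the spheroid response ran from 1 without spheroid culture array 2 to 915 with array weights, which called 2343 in the parental response. The parental split turned with scaling and with single arrays: it was 520 higher and 658 lower after a further quantile normalisation, 478 and 613 after cyclic loess, 276 and 499 without parental culture array 1, and 1246 and 345 without array 2.

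The number of called genes moved with single arrays. It was 97 without parental culture array 1 (67 higher and 30 lower) and 186 without array 2 (49 and 137), and all 27 genes kept their call in both. Without both arrays parental culture is 1 array with no spread of its own, so no count of calls is given for that fit. All 27 genes kept the sign of their interaction in it. The number called was 3 without spheroid culture array 2, 2 without array 3, 16 and 6 without parental xenograft arrays 1 and 2, and 2, 2 and 7 without spheroid xenograft arrays 1, 2 and 3. Every one of the 27 kept its sign under each alternative in which it was measured. With 1 array left out at a time, SPARC and S100A16 kept their call in 12 of 12 fits, NRN1 in 9, GDA in 8 and the other 23 genes in 2 to 7. Over all alternatives S100A16 was called in 24 of 24 alternatives and SPARC in 22 of 23. The direction split was 79 higher and 54 lower after a further quantile normalisation, 78 and 53 when this was done within culture and within xenografts, and 3 and 5 after median centring. It was 381 and 515 with array weights, 144 and 211 with the array interquartile range as a covariate, 6 and 12 without probe sets that can match several transcripts, and 7 and 16 among genes brighter than the median gene.

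**Figure D1:**
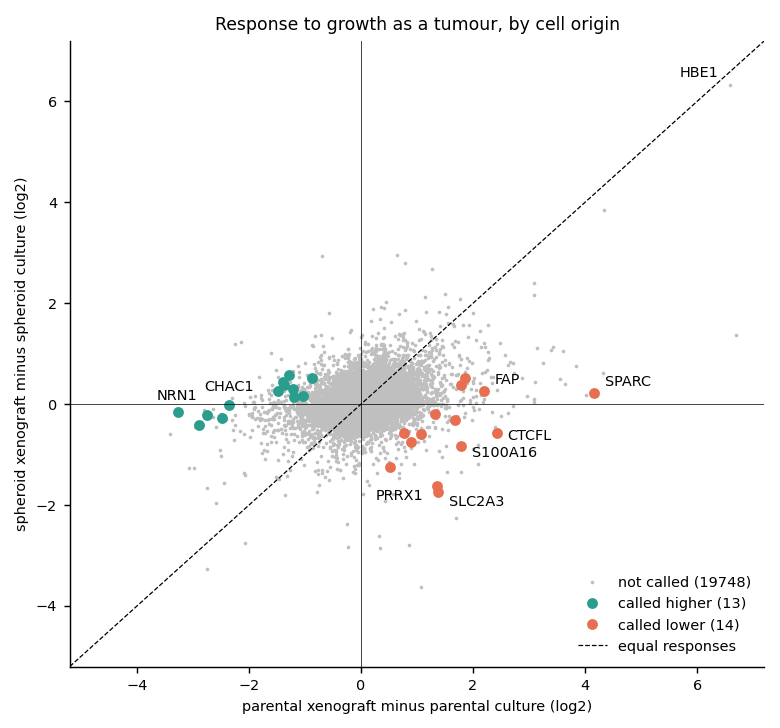
Parental growth response (x axis, log2) against spheroid growth response (y axis, log2) for 19775 genes, with the 27 called genes coloured by direction and the dashed line marking equal responses. The called genes lie away from the dashed line and mostly close to a spheroid response of 0, while HBE1 lies near the line at 6.59 and 6.33.

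The 27 genes were chosen by the difference between both growth responses, so the counts in this paragraph are partly set by that choice. Of the 27 genes, 18 had growth responses of opposite sign, against 39.3% of all genes, and 9 had the same sign with the larger response in parental cells, against 32.5%. In none was the spheroid response the larger of 2 with the same sign, against 28.2% of all genes. All 13 genes called higher were also called lower in the parental growth response, and 12 of 14 called lower were called higher in it. No called gene passed in the spheroid growth response, where the values ran from -1.74 to 0.57. The origin difference, spheroid minus parental, changed sign between culture and xenografts in 21 of the 27, against 40.7% of all genes. In culture all 13 genes called higher were lower in spheroid cells, in a comparison that called 2.46% of genes, 1.58% lower and 0.885% higher, and 9 of the 14 called lower were called higher there. In xenografts 4 genes, SPARC, PRRX1, S100A16 and FAP, were called lower in spheroid-derived tumours, where 0.233% of genes were called, 0.182% lower and 0.0506% higher.

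The group that stood apart also differed. These counts use the same values that chose the genes, so they are partly set by that choice and are only a description. For all 13 genes called higher, the 3 parental cultures lay above all 9 other arrays, which held for 2.54% of all genes. In 2 of the 13 the parental xenografts also lay below all other arrays (0.779% of all genes) and in 1 the spheroid cultures did (0.865%), and in 0 did the spheroid xenografts lie above (1.51%). Among the 14 called lower, the parental cultures lay below all other arrays in 8 (1.97% of all genes), the parental xenografts above in 6 (1.21%), the spheroid cultures above in 3 (1.04%) and the spheroid xenografts below in 1, PRRX1 (0.743%). Some genes count in more than 1 of these patterns, and SLC2A3 and ITPKB in none.

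**Figure D2:**
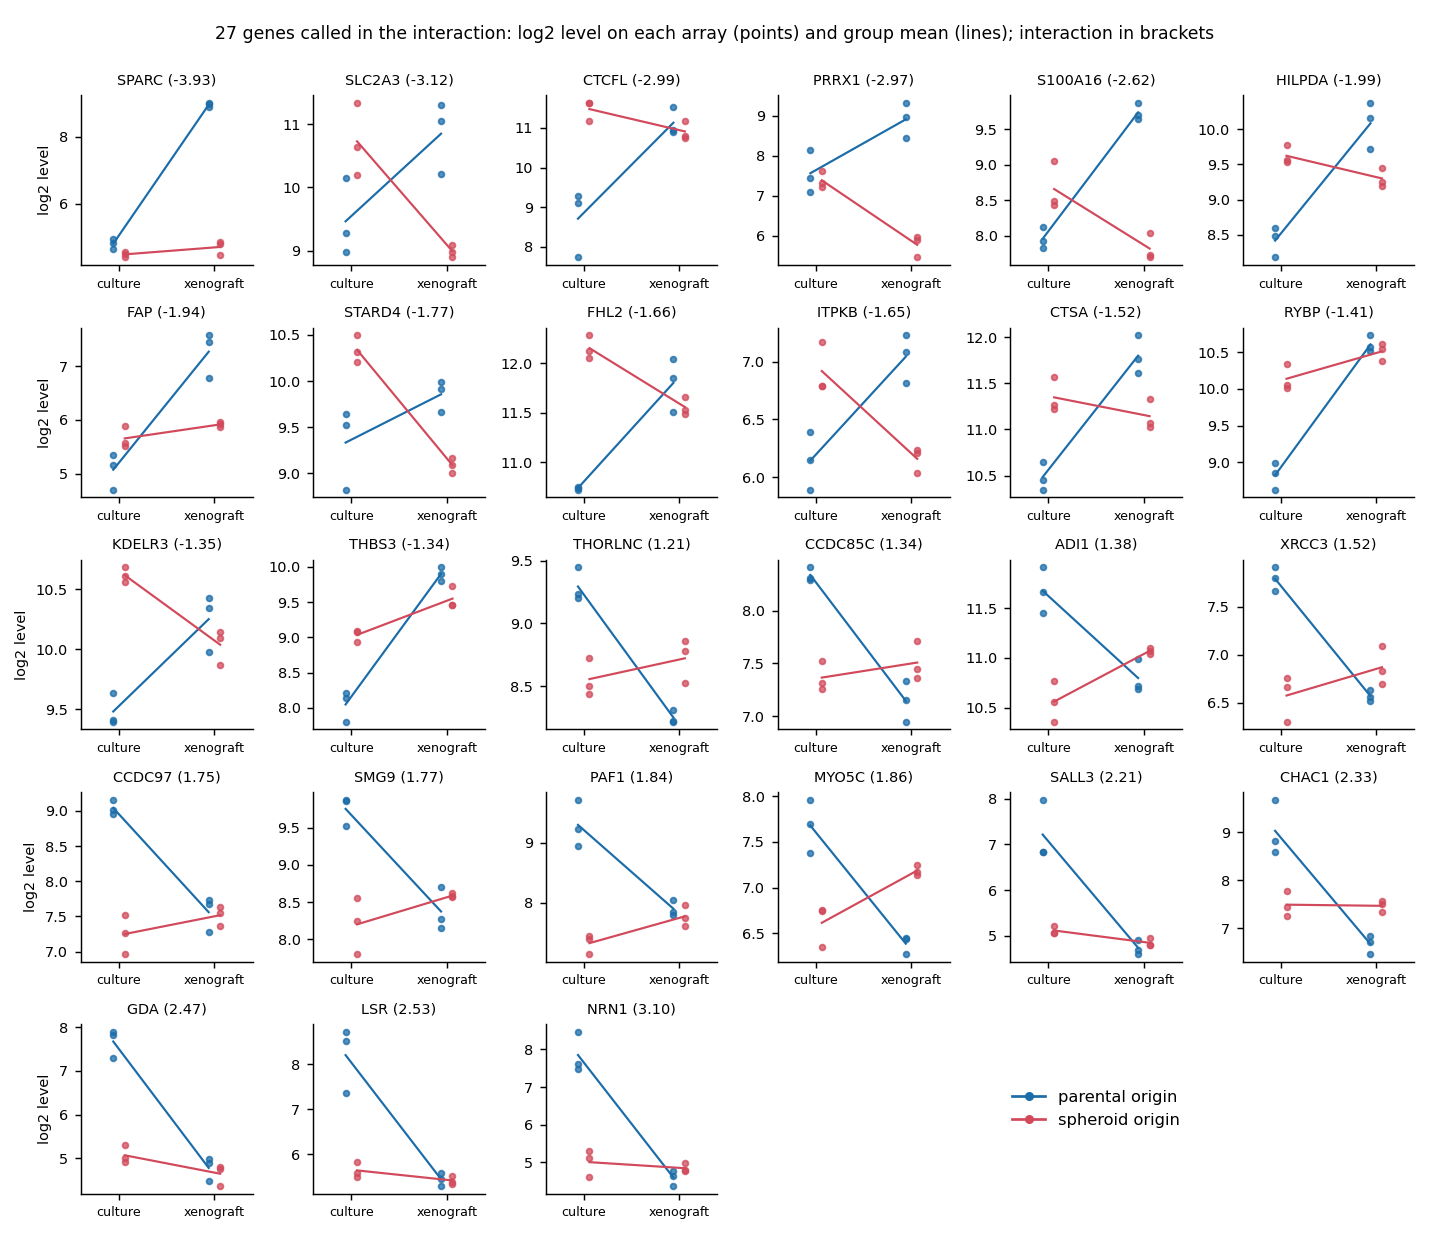
Log2 level on each array (points) and group mean (lines) from culture to xenograft for the 27 called genes, parental origin in blue and spheroid origin in red, with the interaction in brackets. SPARC, S100A16, PRRX1, CTSA, THBS3 and FAP are highest on the parental xenografts, and the last 13 panels, from THORLNC to NRN1, are highest on the parental cultures.

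SPARC had the lowest adjusted p of the interaction. It encodes a secreted matricellular protein that binds collagen and is made by many mesenchymal and wound-edge cells. Its level was 4.64, 4.96 and 4.83 in parental culture, 4.40, 4.56 and 4.51 in spheroid culture, 8.90, 8.98 and 9.01 in xenografts of parental origin, and 4.48, 4.80 and 4.85 in those of spheroid origin. The parental xenografts alone were high, and the other 9 arrays lay together at 4.40 to 4.96. SPARC rose by 4.15 ± 0.14 (SE) in parental cells against 0.22 ± 0.14 in spheroid-derived cells, an interaction of -3.93 ± 0.20 (adjusted p = 4.37e-06). With probe sets that can match several transcripts left out, another probe set stood for SPARC and the interaction was -1.62 (adjusted p = 0.212). The left-out probe sets are those whose names end in _s_at or _x_at.

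PRRX1, a homeobox transcription factor of mesenchyme, had growth responses of opposite sign. Its level was 7.44, 8.15 and 7.09 in parental culture, 7.61, 7.33 and 7.22 in spheroid culture, 8.97, 8.45 and 9.32 in xenografts of parental origin, and 5.88, 5.46 and 5.97 in those of spheroid origin. The cultures overlapped, and the tumours separated to either side of them. It rose by 1.35 ± 0.28 in parental cells, and was -1.62 ± 0.28 in spheroid-derived cells without passing the test there (adjusted p = 0.0651). The interaction was -2.97 ± 0.40 (adjusted p = 0.0190).

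FAP, a cell-surface serine protease best known from activated fibroblasts, read 5.35, 4.70 and 5.16 in parental culture and 7.58, 6.78 and 7.45 in parental xenografts. In the spheroid groups it read 5.51, 5.57 and 5.89 in culture and 5.92, 5.96 and 5.87 in xenografts. Only the parental xenografts were clearly higher, and the interaction was -1.94 ± 0.32 (adjusted p = 0.0416). THBS3, a thrombospondin of the matrix, was lowest in parental culture at 8.05 ± 0.21 (SD, n = 3) and highest in parental xenografts at 9.90 ± 0.09. The spheroid groups lay between, and the interaction was -1.34 ± 0.21 (adjusted p = 0.0403).

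The wider matrix lists had few called members and mostly negative values. Counts of negative members, here and below, are to be read beside 11198 of all 19775 genes with a negative interaction. Of 17 mesenchymal genes, 13 had a negative interaction and 2, SPARC and PRRX1, were called, with a list median of -0.44 beside -0.04 over all genes. That median was -0.22 without parental culture array 1. SNAI2, a repressor of epithelial genes, rose in parental cells by 0.82, but its interaction of -0.75 ± 0.18 did not pass (adjusted p = 0.187). Of 22 matrix proteases and inhibitors, 20 had a negative interaction, the median was -0.83 and none was called. ADAMTS1, a secreted metalloprotease, came closest at -2.01 ± 0.39 (adjusted p = 0.0794). The collagenase gene MMP1 had an interaction of -4.68 with an SE of 1.62, since its parental xenografts ranged from 5.54 to 10.98. None of 22 collagens and collagen-processing genes was called (median -0.32, or -0.12 without parental xenograft array 1 and -0.17 without spheroid culture array 1), nor of 17 integrins and laminins (median -0.37), where ITGB8 stood at -3.06 ± 0.68 (adjusted p = 0.137).

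MGP, chosen here after its values were seen, had the most negative interaction of all genes without passing. It encodes matrix Gla protein, a secreted inhibitor of calcification. It read 6.11, 4.91 and 5.13 in parental culture, 6.36, 5.81 and 5.08 in spheroid culture, 13.78, 12.03 and 10.43 in xenografts of parental origin, and 7.08, 8.19 and 6.07 in those of spheroid origin. The parental xenografts were far above all other arrays and differed widely among themselves. It rose by 6.70 in parental cells, and the interaction was -5.34 ± 1.04 (adjusted p = 0.0794). The matrix protein fibronectin, FN1, showed a like spread, with parental xenografts at 13.70, 12.75 and 12.09 and an interaction of -3.83 ± 1.09 (adjusted p = 0.282).

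SLC2A3, HILPDA and STARD4 were each the called member of a different list, hypoxia response, lipid droplet and cholesterol synthesis. SLC2A3 encodes the high-affinity glucose transporter GLUT3. It read 8.98, 10.14 and 9.28 in parental culture, 11.33, 10.65 and 10.20 in spheroid culture, 11.29, 11.04 and 10.21 in xenografts of parental origin, and 8.90, 8.99 and 9.09 in those of spheroid origin. High levels were shared by the spheroid cultures and the parental xenografts, and the spheroid xenografts lay below both. Neither growth response passed alone (1.38 and -1.74, each with SE 0.36), whereas the interaction did at -3.12 ± 0.50 (adjusted p = 0.0416).

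HILPDA, a hypoxia-inducible protein of lipid droplets that slows fat breakdown, read 8.18, 8.59 and 8.48 in parental culture and 9.72, 10.17 and 10.37 in parental xenografts. The spheroid groups read 9.78, 9.56 and 9.53 in culture and 9.26, 9.19 and 9.45 in xenografts. The parental cultures lay below every other array. It rose by 1.67 ± 0.18 in parental cells against -0.32 ± 0.18 in spheroid-derived cells, an interaction of -1.99 ± 0.26 (adjusted p = 0.0171).

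STARD4, a carrier that moves cholesterol between membranes, read 10.32, 10.50 and 10.20 in spheroid culture and 9.09, 9.17 and 9.01 in spheroid xenografts. It read 8.83, 9.65 and 9.53 in parental culture and 9.92, 9.66 and 9.99 in parental xenografts. The spheroid cultures were above all other arrays, and the interaction was -1.77 ± 0.29 (adjusted p = 0.0416). Of 16 genes of cholesterol synthesis and its control, 14 had a negative interaction and STARD4 alone was called, with a median of -0.46 that was -0.25 without parental culture array 1. MSMO1 (-1.68 ± 0.39, adjusted p = 0.152) and HMGCS1 (-1.41 ± 0.33, adjusted p = 0.155), enzymes of that route, did not pass.

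The hypoxia response list had the most negative median of the 39 function lists. Of its 24 measured members 22 had a negative interaction, with a median of -1.43, and the median growth response was 1.26 in parental cells and -0.00 in spheroid-derived cells. In the parental growth response 11 members were called higher (2.0% of all genes), and in the spheroid growth response none. One member, SLC2A3, was called in the interaction, and 17 of 24 had an unadjusted p under 0.05 beside 1465 of 19775 genes. The list median stayed between -1.67 and -1.13 over 24 alternatives. The mean level over the members was 8.07, 8.73 and 8.30 in parental culture, 9.34, 9.07 and 8.96 in spheroid culture, 9.48, 9.64 and 9.59 in xenografts of parental origin, and 8.83, 8.93 and 9.31 in those of spheroid origin. Parental culture was thus the lowest group and parental xenografts the highest, with both spheroid groups between.

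The promoters of ANKRD37 and PDK1 are shown because these members had the highest parental growth responses of the list, and were chosen after their values were seen. The windows run from 250 bases before to 50 after the RefSeq start, on build GRCh38.p14. ANKRD37 is at chr4:185396591-185396890 and PDK1, by its second listed start, at chr2:172555840-172556139, both on the + strand. Capitals mark ACGTG, the core bound by hypoxia-inducible factors, on either strand, so CACGT in capitals is its reverse complement. In ANKRD37 the run CACGTG holds a match on each strand that overlap.
ANKRD37: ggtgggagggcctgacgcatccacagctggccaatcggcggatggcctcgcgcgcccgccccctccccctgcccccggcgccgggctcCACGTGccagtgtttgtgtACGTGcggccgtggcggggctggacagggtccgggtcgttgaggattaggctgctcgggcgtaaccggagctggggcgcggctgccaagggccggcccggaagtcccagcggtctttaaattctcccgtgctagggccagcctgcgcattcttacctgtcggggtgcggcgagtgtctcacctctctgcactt
PDK1: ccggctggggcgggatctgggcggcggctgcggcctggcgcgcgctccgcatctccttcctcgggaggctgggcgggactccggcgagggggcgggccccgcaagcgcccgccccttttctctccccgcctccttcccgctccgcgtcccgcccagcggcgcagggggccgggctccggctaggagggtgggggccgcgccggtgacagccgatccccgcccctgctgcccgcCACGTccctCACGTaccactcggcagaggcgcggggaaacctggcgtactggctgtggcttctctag
ACGTG occurred in the windows of 12 of the 19 list members with a window in the RefSeq table, against 24.9% of all 27305 genes with one. The window at the first listed start of PDK1 held 0 matches. A match is a description of these letters and not of binding.

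ANKRD37, an ankyrin-repeat gene induced by hypoxia, read 5.30, 5.84 and 5.67 in parental culture, 6.47, 8.03 and 8.69 in spheroid culture, 9.17, 9.30 and 9.13 in xenografts of parental origin, and 8.16, 8.86 and 9.32 in those of spheroid origin. The parental cultures lay below all other arrays and the tumours of both origins overlapped. It rose by 3.60 in parental cells (adjusted p = 0.0023), and its interaction of -2.55 ± 0.64 did not pass (adjusted p = 0.205). PDK1, the kinase that turns pyruvate away from mitochondria, rose by 2.33 in parental cells against 0.41 in spheroid-derived cells, with an interaction of -1.92 ± 0.54 (adjusted p = 0.277). ERO1A, an oxidase of protein folding, stood at -2.06 ± 0.50 (adjusted p = 0.185). VEGFA, the main growth factor of vessels, had an interaction of -0.43 ± 0.73 (adjusted p = 1.00).

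The glycolysis list had a median of -0.41, which lay between -0.56 and -0.26 over 24 alternatives. It had 15 of 16 members negative and none called. Its member with the most negative value, ENO2, an enolase of neurons and tumours, read 6.91 to 8.45 in parental culture and 9.28 to 10.48 in parental xenografts, with an interaction of -2.89 ± 0.79 (adjusted p = 0.255). STC1, a secreted glycoprotein of calcium balance, lay just outside the threshold at -3.95 ± 0.67 (adjusted p = 0.0517). It read 10.02 to 12.16 in parental xenografts and 7.24 to 7.90 in spheroid xenografts, without overlap.

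**Figure D3:**
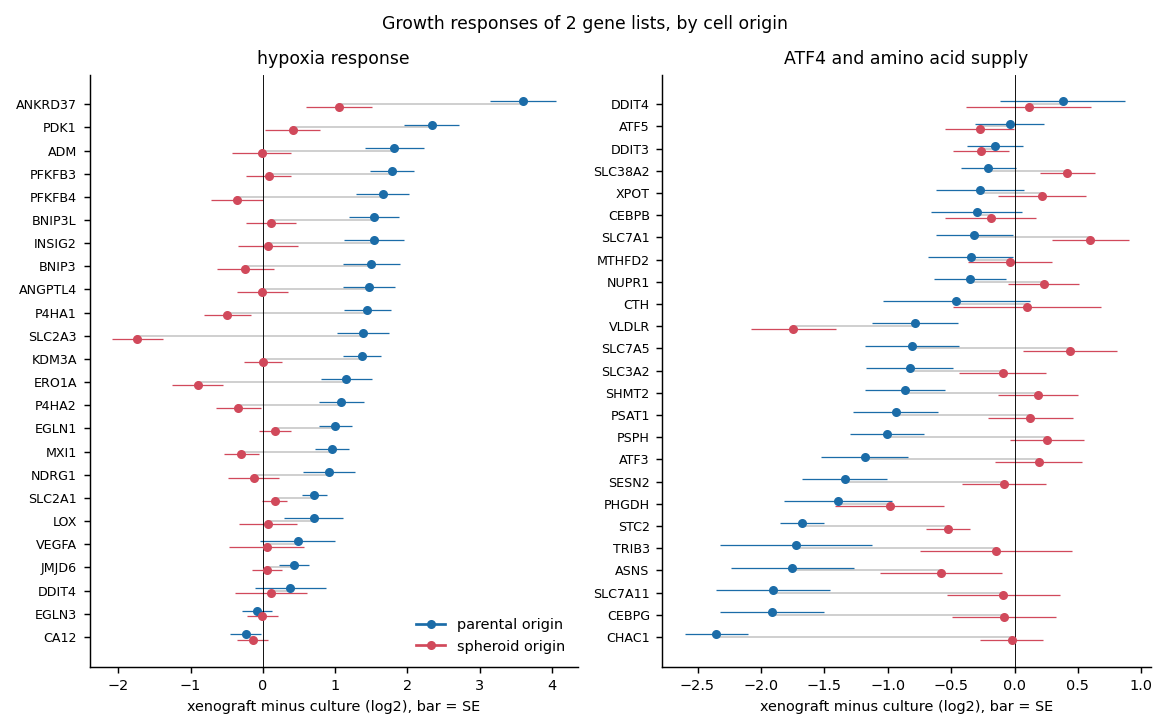
Growth response (xenograft minus culture, log2, with SE bars) of the 24 measured hypoxia response genes and the 25 measured ATF4 and amino acid genes, parental origin in blue and spheroid origin in red. Parental values of the hypoxia list lie mostly to the right of 0 (median 1.26) and those of the ATF4 list mostly to the left (median -0.83), while spheroid medians are -0.00 and -0.04.

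The other genes called lower serve signalling, secretion and chromatin. S100A16, a calcium-binding protein, read 8.12, 7.93 and 7.82 in parental culture, 9.05, 8.43 and 8.49 in spheroid culture, 9.70, 9.87 and 9.64 in xenografts of parental origin, and 8.04, 7.69 and 7.72 in those of spheroid origin. The parental xenografts lay above all other arrays, and the spheroid xenografts lay with the parental cultures. It rose by 1.78 ± 0.18 in parental cells against -0.84 ± 0.18, an interaction of -2.62 ± 0.26 (adjusted p = 0.00296). ITPKB, which phosphorylates inositol trisphosphate, was likewise highest in spheroid culture and parental xenografts, with levels of 6.15 ± 0.25 (SD, n = 3) in parental culture, 6.92 ± 0.22 in spheroid culture, 7.04 ± 0.21 in xenografts of parental origin and 6.16 ± 0.11 in those of spheroid origin. All 5 of its probe sets had a negative interaction, that of its brightest being -1.65 ± 0.25 (adjusted p = 0.0340) and that of their mean -0.51 (adjusted p = 0.363).

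FHL2, a LIM-domain cofactor of transcription, read 10.74, 10.72 and 10.75 in parental culture, 12.12, 12.28 and 12.05 in spheroid culture, 11.51, 11.85 and 12.04 in xenografts of parental origin, and 11.52, 11.49 and 11.66 in those of spheroid origin. It was lowest on the parental cultures and highest on the spheroid cultures, while the tumours of both origins overlapped. The interaction was -1.66 ± 0.21 (adjusted p = 0.0171). CTSA, the lysosomal protective protein, had an interaction of -1.52 ± 0.23 (adjusted p = 0.0340), with parental cultures below and parental xenografts above all other arrays. KDELR3, which returns escaped proteins to the endoplasmic reticulum, had -1.35 ± 0.22 (adjusted p = 0.0416). Endoplasmic reticulum folding genes had a median of -0.54 and none was called. Of these genes 13 of 19 were negative, beside 11198 of 19775 over all genes. PDIA4, a disulphide isomerase of this list, stood at -1.27 ± 0.23 (adjusted p = 0.0572). That list median was -0.20 without parental culture array 1.

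CTCFL, the germline paralogue of the chromatin insulator CTCF, read 9.10, 9.29 and 7.73 in parental culture against 11.18, 11.63 and 11.63 in spheroid culture. In xenografts it read 10.90, 10.96 and 11.54 for parental and 10.81, 10.75 and 11.18 for spheroid origin. The parental cultures alone were low, and the interaction was -2.99 ± 0.49 (adjusted p = 0.0416). RYBP, a subunit of Polycomb repressive complexes, rose by 1.78 ± 0.15 in parental cells against 0.37 ± 0.15, an interaction of -1.41 ± 0.21 (adjusted p = 0.0340). Without probe sets that can match several transcripts, a dimmer probe set stood for RYBP and the interaction was -0.25 (adjusted p = 0.982).

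Among genes called higher, CHAC1 belongs to the ATF4 list. It encodes an enzyme that degrades glutathione and is a known ATF4 target. It read 8.81, 9.68 and 8.60 in parental culture, 7.78, 7.45 and 7.26 in spheroid culture, 6.84, 6.47 and 6.72 in xenografts of parental origin, and 7.56, 7.51 and 7.34 in those of spheroid origin. The parental cultures were the highest and the parental xenografts the lowest of all arrays, and the spheroid groups overlapped. CHAC1 fell by 2.35 on the log2 scale in parental cells (SE 0.25) and was -0.02 ± 0.25 in spheroid-derived cells, an interaction of 2.33 ± 0.35 (adjusted p = 0.0340).

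The CHAC1 promoter is shown because CHAC1 is the called member of its list. The window is chr15:40953221-40953520 on the + strand of GRCh38.p14, from RefSeq. Capitals mark the match to TGATGNAA, the composite element for ATF4 and its C/EBP partners, read here on the other strand.
CHAC1: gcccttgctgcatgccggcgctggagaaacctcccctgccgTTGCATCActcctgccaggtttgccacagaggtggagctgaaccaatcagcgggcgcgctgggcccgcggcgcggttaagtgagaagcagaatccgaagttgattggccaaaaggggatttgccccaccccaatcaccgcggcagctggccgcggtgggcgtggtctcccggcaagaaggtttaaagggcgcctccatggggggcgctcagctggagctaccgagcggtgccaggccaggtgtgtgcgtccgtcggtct
TGATGNAA occurred on either strand in the windows of 6 of the 21 list members with a window (28.6%), against 4.46% of all genes with one and 0 of the 19 hypoxia members. ACGTG occurred in 3 of the same 21. These counts describe letters only.

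The ATF4 and amino acid list had the highest median interaction of the function lists, 0.92, with 21 of 25 members positive and CHAC1 called. The median growth response was -0.83 in parental cells, where 5 members were called lower (1.48% of all genes), and -0.04 in spheroid-derived cells, where none was. The mean level over members was 9.21, 10.72 and 9.98 in parental culture and 8.92 to 9.66 on the other 9 arrays. Parental culture array 1 overlapped the other groups and arrays 2 and 3 lay above them. STC2, a secreted glycoprotein induced by ATF4, fell by 1.68 in parental cells and had an interaction of 1.15 ± 0.24 (adjusted p = 0.104). SLC7A11, the cystine importer, stood at 1.82 ± 0.63 (adjusted p = 0.446), with parental culture arrays at 8.57, 10.54 and 9.96. The list median lay between 0.58, without parental culture array 2, and 1.23, without array 1, over 24 alternatives.

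NRN1 had the highest called interaction. It encodes neuritin, a membrane-anchored protein of neurite outgrowth. It read 7.61, 8.47 and 7.48 in parental culture, 5.30, 4.59 and 5.10 in spheroid culture, 4.36, 4.77 and 4.63 in xenografts of parental origin, and 4.79, 4.75 and 4.96 in those of spheroid origin. The parental cultures alone were high. NRN1 fell by 3.26 in parental cells (SE 0.26) and had an interaction of 3.10 ± 0.36 (adjusted p = 0.0112).

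SALL3, a zinc-finger transcription factor of development, and GDA, the enzyme that deaminates guanine, had the same pattern. SALL3 read 6.83, 7.98 and 6.83 in parental culture and 4.60 to 5.21 elsewhere, with an interaction of 2.21 ± 0.36 (adjusted p = 0.0416), or 1.46 with the mean of its probe sets (adjusted p = 0.0610). GDA read 7.90, 7.82 and 7.30 in parental culture and 4.36 to 5.29 elsewhere, with an interaction of 2.47 ± 0.29 (adjusted p = 0.0112). With probe sets that can match several transcripts left out, the interaction of GDA was 0.13, and with the mean of its probe sets it was 1.30. ADI1, an enzyme of methionine salvage, fell in parental cells and had an interaction of 1.38 ± 0.23 (adjusted p = 0.0416).

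MYO5C, an unconventional myosin of epithelial secretory transport, read 7.38, 7.96 and 7.69 in parental culture, 6.75, 6.75 and 6.35 in spheroid culture, 6.28, 6.45 and 6.44 in xenografts of parental origin, and 7.17, 7.14 and 7.25 in those of spheroid origin. Here the spheroid xenografts also lay above the spheroid cultures and the parental xenografts. The interaction was 1.86 ± 0.24 (adjusted p = 0.0171). XRCC3, a DNA repair gene, had 1.52 ± 0.22 (adjusted p = 0.0340), the coiled-coil gene CCDC85C 1.34 ± 0.21 (adjusted p = 0.0416), and the long noncoding RNA THORLNC 1.21 ± 0.20 (adjusted p = 0.0455). All 3 fell in parental cells, by 1.22, 1.19 and 1.04. With the mean of its probe sets CCDC85C stood at 0.76 (adjusted p = 0.107).

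LSR, PAF1, CCDC97 and SMG9 lie on the long arm of chromosome 19. LSR, a lipoprotein receptor that also sits at tricellular junctions, read 8.72, 8.52 and 7.36 in parental culture and 5.29 to 5.83 elsewhere, with an interaction of 2.53 ± 0.40 (adjusted p = 0.0404). PAF1, a subunit of a transcription elongation complex, read 8.94, 9.72 and 9.24 in parental culture and 7.15 to 8.05 elsewhere, with 1.84 ± 0.27 (adjusted p = 0.0340). CCDC97, a coiled-coil gene, and SMG9, a partner of the nonsense-mediated decay kinase SMG1, had 1.75 ± 0.25 (adjusted p = 0.0288) and 1.77 ± 0.29 (adjusted p = 0.0416). With the mean of their probe sets these were 0.77 (adjusted p = 0.0759) and 0.97 (adjusted p = 0.0651). In all 4 genes the parental cultures were above all 9 other arrays. The other 3 groups overlapped in LSR and CCDC97, and in PAF1 the spheroid cultures lay below all other arrays. In SMG9 the parental xenografts overlapped both spheroid groups, whereas the spheroid cultures, up to 8.55, lay just below the spheroid xenografts, from 8.57.

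Genes around them had values of the same sign. This run was chosen after its values were seen, so no test is given. The 9871 genes brighter than the median gene were cut into 384 blocks of 25 neighbours in the order of the RefSeq gene table. On chromosome 19, 8 consecutive blocks of 29, from VSTM2B-DT to HIF3A (200 genes), had block medians of 0.34 to 1.15. Blocks of other chromosomes ran from -0.77 to 0.48, and 19 of those 355 exceeded the limit of 0.3 that defined the run. The other blocks of chromosome 19 ran from -0.25 to 0.17.

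Within the run 168 of 200 genes had a positive interaction, with a median of 0.69. The median growth response was -0.77 in parental cells and -0.07 in spheroid-derived cells. The parental cultures lay above all 9 other arrays in 103 of the 200 genes (51.5%), against 2.15% of the other genes in blocks. The median deviation of the run's genes from their means was 0.32, 0.89 and 0.60 on the parental cultures and -0.31 to -0.08 on the other 9 arrays. All 3 parental cultures, including array 3, were high, and none of the other arrays was. In the parental growth response 77 of the run's 200 genes were called lower, beside 187 of all 9871 genes in blocks. The parental response is part of the interaction that defined the run, so such counts are partly set by that choice. Over all 367 tested genes between the ends of the run, dim ones included, the median interaction was 0.35, 256 were above 0 and in 129 the parental cultures lay above all other arrays. The median of the 200 genes stayed between 0.59 and 0.81 under every alternative. Of list members in the run, CEBPG of the ATF4 list, a C/EBP partner of ATF4, had an interaction of 1.83 ± 0.58 without passing (adjusted p = 0.380).

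**Figure D4:**
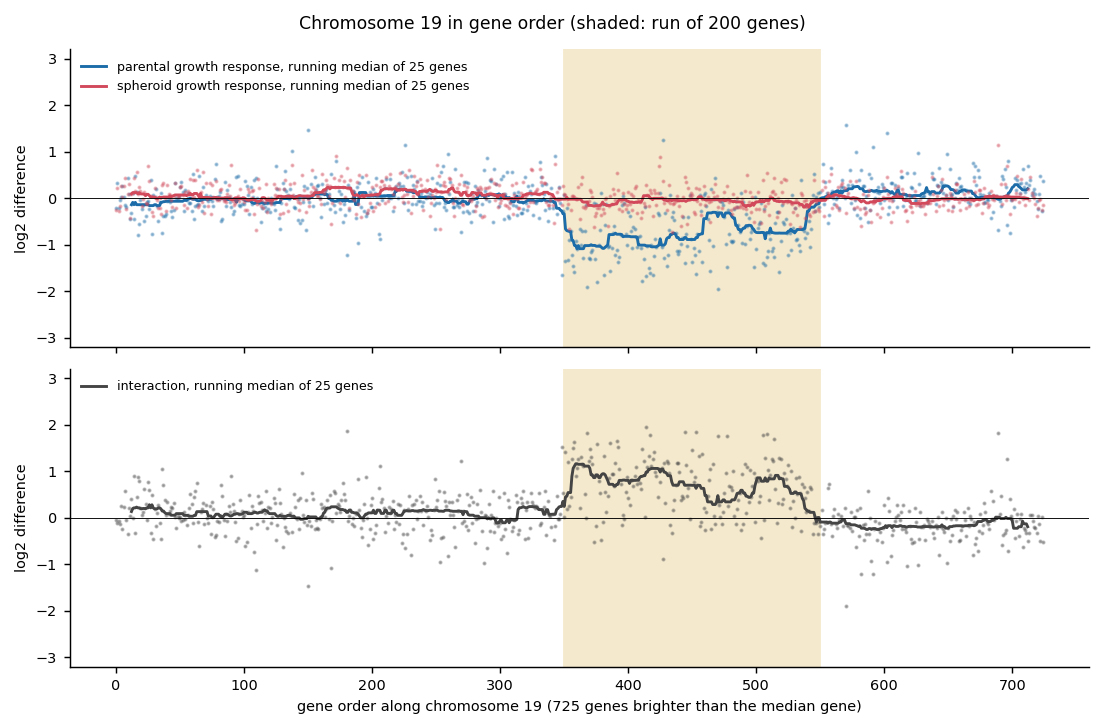
Growth responses (upper panel) and interaction (lower panel) in log2 units for 725 genes in their order along chromosome 19, with points for genes and lines for running medians of 25 genes. In the shaded run of 200 genes the parental response lies below 0 (median -0.77) and the interaction above it (median 0.69), while the spheroid response stays near 0 (median -0.07).

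Proliferation genes had small values. Over all genes 8577 of 19775 had a positive interaction. Of 25 genes of G2 and M phase 22 had a positive interaction with a median of 0.30, and of 22 genes of S phase 18 had, with a median of 0.21. None was called in either list. The G2 and M median was 0.52 without parental culture array 1 and 0.18 without spheroid culture array 1. The S phase median was 0.08 without spheroid culture array 1, 0.32 without array 3, 0.10 without spheroid xenograft array 3 and 0.04 without probe sets that can match several transcripts. MKI67, the proliferation antigen, had an interaction of 0.71 ± 0.27 (adjusted p = 0.515), and UBE2C, a mitotic ubiquitin-conjugating enzyme, -1.12 ± 0.30 (adjusted p = 0.231). Of 24 interferon response genes 15 were positive with a median of 0.21, which was 0.12 without spheroid culture array 3 or spheroid xenograft array 1 and 0.35 without spheroid xenograft array 3. PARP14 came closest at 1.10 ± 0.20 (adjusted p = 0.0606), with spheroid xenografts at 8.11 to 8.27 and the other arrays at 7.08 to 7.79. Of 17 YAP and TEAD targets 13 were positive with a median of 0.38 and none called, and that median was 0.16 without parental xenograft array 1, 0.59 without array 3 and 0.24 without parental culture array 3. KRT8, a keratin of simple epithelium, fell by 1.77 in parental cells and had an interaction of 1.71 ± 0.34 (adjusted p = 0.0837).

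Ligands of contact signalling did not pass. JAG1, a Notch ligand, rose in parental cells by 3.24 against 0.81 in spheroid-derived cells, with an interaction of -2.43 ± 0.56 (adjusted p = 0.151). EFNB2, an ephrin ligand, rose by 3.43 against 1.13, with -2.30 ± 0.67 (adjusted p = 0.298). Of 20 ephrin, semaphorin and guidance genes 18 were negative, with a median of -0.23 that was -0.14 without parental culture array 2 and -0.39 without parental xenograft array 3. KCNJ2, an inward rectifier potassium channel, read 7.88 to 9.55 in parental xenografts and 4.56 to 6.69 elsewhere, with an interaction of -2.74 ± 0.53 (adjusted p = 0.0794).

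Stem cell markers showed no called member among 21, with a median of -0.02 whose sign held in 11 of 24 alternatives. PROM1, which encodes the surface antigen CD133, read 3.98 to 4.43 on all 12 arrays and had an interaction of 0.08 ± 0.23 (adjusted p = 1.00). SOX2, NANOG and ALDH1A1 had interactions of -0.04 ± 0.23, 0.17 ± 0.26 and -0.22 ± 0.19. PROM1 and ALDH1A1, the latter at 4.06 to 4.46, lay below the lower quartile of every array. Their values therefore cannot show whether they responded alike in both origins. SOX2 read 5.45 to 6.19 and NANOG 5.16 to 6.04. CD44, an adhesion receptor, was at 0.57 ± 0.47 (adjusted p = 1.00), with spheroid cultures at 8.84 to 10.08 and parental cultures at 10.50 to 11.40. ABCB1, a drug efflux pump, had 1.14 ± 0.37 (adjusted p = 0.394).

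**Figure D5:**
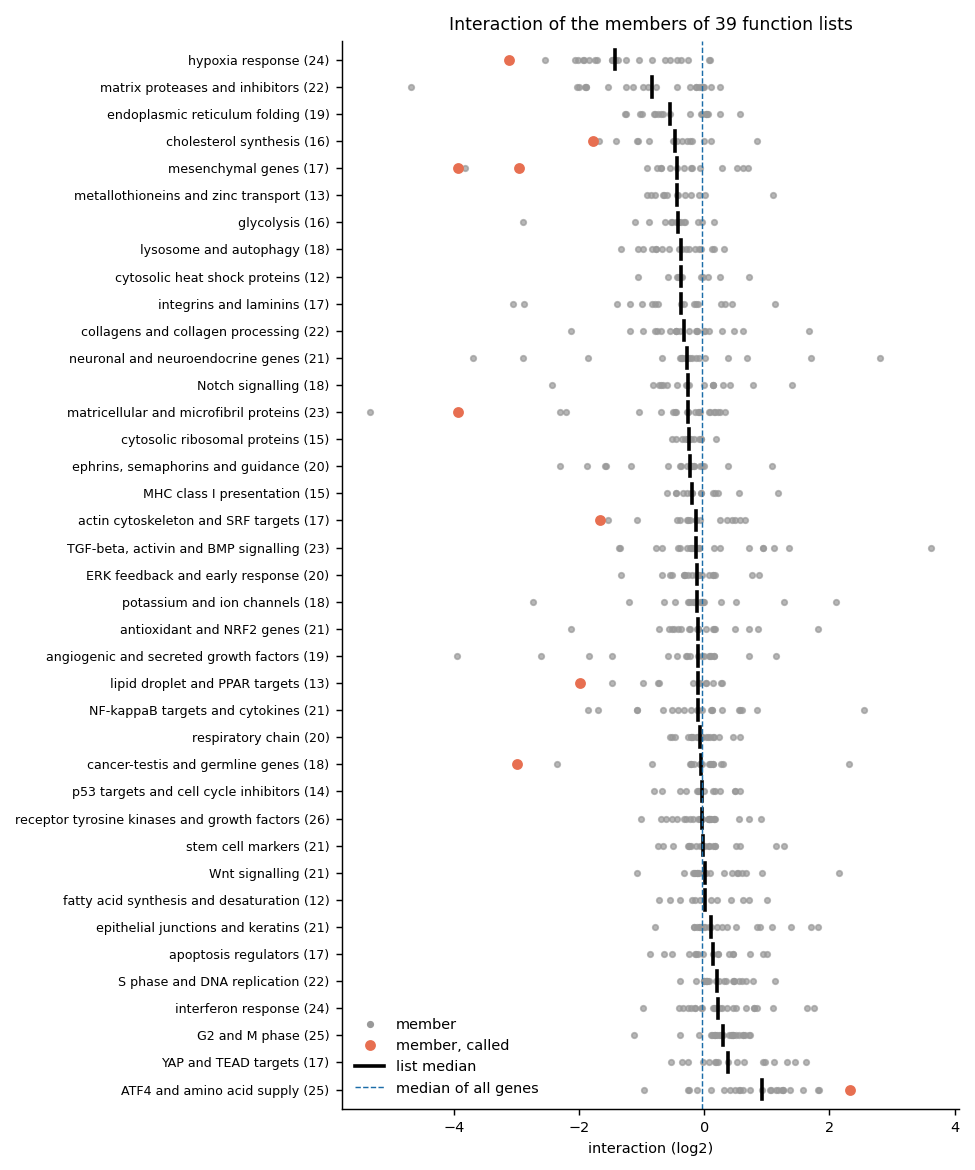
Interaction (log2) of the measured members of 39 function lists (points, called members in orange), with list medians as black bars and the median of all genes, -0.04, as a dashed line; numbers in brackets are measured members. The hypoxia response list lies furthest to the left (median -1.43) and the ATF4 and amino acid list furthest to the right (median 0.92).

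Of 8 marker lists for cells a tumour could hold, only the fibroblast list had a member called in the interaction, FAP, 1 of 17. In the parental growth response 3 of its 17 members, FAP, COL3A1 and POSTN, were called higher (2.0% of all genes), and in the spheroid growth response 0 were. The mean level over that list was 5.32 to 5.70 in parental culture, 5.52 to 5.70 in spheroid culture, 5.63 to 6.05 in xenografts of parental origin and 5.65 to 5.74 in those of spheroid origin. COL3A1, a fibrillar collagen of that list, read 6.28 to 7.88 in parental xenografts, 6.14 to 7.27 in spheroid xenografts and 5.14 to 5.43 in culture, rose by 2.06 in parental cells against 1.27 in spheroid-derived cells, and had an interaction of -0.79 ± 0.53 (adjusted p = 0.940). The part of such cells in the values of SPARC, PRRX1 and FAP was not tested. The macrophage, endothelial, lymphocyte, muscle, fat and keratinocyte lists had no member called in the interaction or in either growth response. LAPTM5 of the macrophage list read 9.40 on parental xenograft array 1 and 6.29 to 7.13 on all other arrays. The mean over that list was 5.84 on the same array and 5.21 to 5.71 on the others.

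HBE1, the embryonic beta-like globin, rose in tumours of both origins. It read 4.72 to 5.96 on the 6 cultures and 11.06 to 12.66 on the 6 xenografts, without overlap. It rose by 6.59 in parental and by 6.33 in spheroid-derived cells, and its interaction was -0.26 ± 0.54 (adjusted p = 1.00). Of the 8 measured genes of the erythroid list, only 1, HBE1, was called in each growth response. The median growth response of that list was 0.05 in parental and 0.00 in spheroid-derived cells. The other genes called in the spheroid growth response were TM4SF18, SPAG1 and LINC02591. TM4SF18, a tetraspanin-like membrane protein, rose by 2.96 in spheroid-derived cells against 0.64 in parental cells, with an interaction of 2.33 ± 0.47 that did not pass (adjusted p = 0.0866). SPAG1, a factor of dynein arm assembly, rose by 2.79 against 0.79, with 2.00 ± 0.48 (adjusted p = 0.169).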

How the data were processed

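Each of the 12 samples gave 2 µg of total RNA for 1 Affymetrix HG-U133 Plus 2.0 array (54675 probe sets). The deposited values are log2 expression values; RMA and the R package affy are named per the submitters' processing notes. No label names versions, a genome build or the set of arrays that RMA was run on. RMA normally equalises array distributions, which hides a shift shared by most genes; here the interquartile ranges still ran from 2.82 to 3.44. Depth has no meaning for arrays; their number limits the precision.

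Of the probe sets 41097 had 1 gene symbol, 1801 several and 11777 none; 62 were controls and were left out. Symbols were updated by gene number for 41043 probe sets from the RefSeq table of GRCh38.p14. The brightest probe set on average stood for each of 19775 genes. R 4.3.3 and limma 3.58.1 fitted 1 mean per group to all arrays, followed by eBayes (8 residual degrees of freedom, two-sided tests).

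The text names called genes, the members of 47 lists (811 of 883 genes represented; 39 functions, 8 other cell types) that were called or had the lowest p, and fixed stem cell markers; other list members and genes named beside them were chosen after their values were seen. Members and lists were chosen with earlier results of these data known. Lists are described by counts and medians, with no test. On simulated data with 19775 genes, known log2 differences of 1, 2, 3 and 4 were planted in a small subset. The interaction step recovered 24%, 78%, 88% and 100% of them, with 4 false calls. The simulation gave each gene the same spread in all groups and independent noise between arrays. In the data the median SD was 0.316 in parental culture and 0.156 to 0.199 elsewhere, so these rates need not hold there. Alternatives covered normalisation, probe set choice, dim genes, the variance model, array weights, a replicate block, array spread and leaving out arrays.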

Additional observations from a re-analysis of the deposited data

Results flagged for a closer look

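The growth responses of 2 cell origins differed by the interaction term of the limma fit for 27 genes. The spheroid response was the lower for SPARC (-3.93), SLC2A3 (-3.12), CTCFL (-2.99), PRRX1 (-2.97), S100A16 (-2.62), HILPDA (-1.99), FAP (-1.94), STARD4 (-1.77), FHL2 (-1.66), ITPKB (-1.65), CTSA (-1.52), RYBP (-1.41), KDELR3 (-1.35) and THBS3 (-1.34), in log2 units. It was the higher for THORLNC (1.21), CCDC85C (1.34), ADI1 (1.38), XRCC3 (1.52), CCDC97 (1.75), SMG9 (1.77), PAF1 (1.84), MYO5C (1.86), SALL3 (2.21), CHAC1 (2.33), GDA (2.47), LSR (2.53) and NRN1 (3.10). No explanation of these differences was tested.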

How the results depend on the processing

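Called genes are given in the order interaction, parental growth response and spheroid growth response, which were 27, 687 and 4. They were 133, 1178 and 40 after a further quantile normalisation, 94, 1091 and 19 after cyclic loess, and 131, 1280 and 97 when cultures and xenografts were quantile normalised apart. Array weights gave 896, 2343 and 915, and the interquartile range of each array as a covariate 355, 1901 and 204. Without parental culture arrays 1 and 2, an alternative chosen for their 18S values, they were 62, 554 and 49. Median centring called 8 in the interaction. The spheroid growth response called 7 when the probe sets of a gene were averaged, 21 among genes brighter than the median gene and 12 with trend and robust eBayes, and the parental response called 441 without probe sets that can match several transcripts. Leaving out 1 array at a time gave 2 to 186, 247 to 1591 and 1 to 57. The cause of these shifts was not tested.

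The labels do not tie replicate numbers across groups. Deviations of 18 same-numbered pairs correlated at -0.565 to 0.482 (median 0.187, against -0.115 for other pairs). The 6 negative pairs all held parental culture array 2 or 3, and the 9 pairs among the other groups ran from 0.080 to 0.482. Parental culture array 2 correlated at 0.508, 0.584 and 0.636 with the arrays numbered 3 of the other groups. Parental culture array 3 correlated at 0.319 to 0.362 with those numbered 2 and at 0.021 to 0.398 with those numbered 1. The source of these correlations was not tested, and the numbers were not taken to pair all samples. With the labelled replicate number as a block, 12 genes were called in the interaction, 10 of them among the 27. In the parental and spheroid growth responses 626 and 8 were called. That fit does not show what another grouping of the arrays would give.

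Signs turned for 2 genes that were not called. Leaving out 1 array gave -0.62 to 0.18 for HBE1, positive without spheroid culture array 1 (0.11) or parental xenograft array 1, and -0.95 to 0.026 for VEGFA, positive without the latter array. Of 16 lists examined, all but the stem cell and fibroblast lists kept the sign of their median in 24 alternatives.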
